A study of Mus musculus with 4 samples.

Results

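Regulators and markers of interneurons from the caudal ganglionic eminence (CGE) were followed in somatostatin-lineage cells of the mouse embryo, with and without *Dnmt1*. Members were all rows of the gene table carrying 1 of 8 names, namely *Nr2f1*, *Nr2f2*, *Prox1*, *Sp8*, *Npas1*, *Npas3*, *Htr3a* and *Vip*, and all 8 were found among the 56883 genes of the table. Cells positive for the red reporter tdTomato had been sorted from the basal telencephalon at embryonic stage E14.5. Control cells carried *Sst-Cre/tdTomato* and *Dnmt1* KO cells carried *Sst-Cre/tdTomato/Dnmt1 loxP2*, so that both groups shared the Cre driver and the reporter and received no treatment. Cre runs from the *Sst* gene, and *Dnmt1* is deleted only in cells that have switched *Sst* on. RNA was taken from 50000 cells per genotype, pooled from several embryos, and made into 2 separate libraries for either genotype. P-values therefore measure the spread between these pooled samples, which may be partly technical.

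Cortical interneurons are born in the ganglionic eminences of the ventral telencephalon. Those of the medial eminence (MGE) depend on *Lhx6* and become somatostatin or parvalbumin cells, whereas those of the CGE commonly carry the serotonin receptor subunit HTR3A and give rise to VIP and reelin cells. The nuclear receptors NR2F1 and NR2F2 (COUP-TFI and COUP-TFII), the homeodomain protein PROX1 and the zinc finger protein SP8 are known for their roles in CGE-derived cells, although each is also made elsewhere in the forebrain, and NR2F1 and NR2F2 are present in parts of the MGE. NPAS1 and NPAS3 are related basic helix-loop-helix PAS transcription factors of forebrain interneurons. DNMT1 copies DNA methylation at CG dinucleotides onto new strands during replication and is retained in postmitotic neurons.

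Of the 8 genes, *Nr2f2* and *Prox1* were lower and *Htr3a* was higher in *Dnmt1* KO cells in a test across all genes. The *Nr2f2* call held whichever library was left out, while those of *Prox1* and *Htr3a* were lost when single libraries were left out. *Sp8* lay lower in both KO libraries but missed the threshold, *Nr2f1* hardly moved relative to library size, *Npas1* and *Npas3* did not pass, and *Vip* had no read. Values are normalized counts, that is, reads per gene divided by a size factor for the library. Fold changes are on the log2(normalized count + 1) scale, KO over control. Calls are at an adjusted p below 0.05 (limma, Benjamini-Hochberg adjustment over the 14323 genes whose normalized counts averaged 10 or more). With 2 libraries per genotype, exact permutation of the labels for 1 gene gives p = 0.333 at the least.

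Reads per library were 8376711 and 7276779 in control and 7744944 and 6970247 in KO. The labelled cell type was checked with *Sst* and *Lhx6*, which stood at 5580 and 5963 and at 2714 and 2679 normalized counts in control. In KO they reached 8303 and 7825 for *Sst* and 4270 and 4674 for *Lhx6*, higher by 0.48 (adjusted p = 4.87e-06) and 0.73 (adjusted p = 2.62e-07) on the log2 scale by limma. *Dnmt1* itself gave 2238 and 2341 normalized counts in control and 2164 and 2210 in KO (log2 fold change −0.07, limma adjusted p = 0.461). That count sums over the whole gene and does not show whether the floxed part was lost.

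Markers of other cells were present in the sorted samples, and they moved with genotype. For comparison with the counts of called markers, limma called 8.3% of all genes tested higher and 8.99% lower. The 14 MGE interneuron markers summed to 19469 to 19950 normalized counts in control and 31507 to 31826 in KO, with 12 of 14 tested called higher. Of 9 GABAergic neuron markers, 8 were called higher, with sums of 12135 to 12610 in control and 17397 to 17661 in KO. Most interneuron markers were thus higher in KO. Sums of pallial excitatory markers (led by *Tbr1*) went from 3554 to 3599 in control to 1728 to 1881 in KO, with 11 of 13 called lower. Radial glia markers (led by *Vim*) spanned 11272 to 11475 in control and 6643 to 6813 in KO, with 10 of 12 lower and 1 higher. For endothelial, mural and fibroblast markers (led by *Kdr*) the sums were 1009 to 1024 and 444 to 463, with 12 of 14 tested lower. Lineages outside the GABAergic neurons were thus mostly lower, in both KO libraries. Markers of dividing cells (led by *Mki67*) went from sums of 7369 to 7515 to sums of 5340 to 5379. All 12 had a negative log2 fold change, and 10 were called lower. Erythroid markers, led by *Hba-a2*, summed to 2433 to 2610 and 587 to 592, with 8 of 8 tested lower and *Gata1* at 0. Microglia markers (led by *Csf1r*) summed to 110 to 120 in control and 38.5 to 50.3 in KO, with 2 of 4 tested lower. Sums of LGE and striatal markers, led by *Bcl11b*, differed little, at 8304 to 8331 and 8111 to 8219. This flat sum hides opposite changes, since *Bcl11b* rose from 3349 and 3317 in control to 4596 and 4514 in KO. Of 15 tested, 2 were called higher and 7 lower, and 12 had a negative log2 fold change, with a median of −0.50. *Gata1* was the only listed marker at 0 in all libraries. In bulk samples such as these, fewer cells of a type and less RNA per cell cannot be told apart, and the part of other cells in the values below was not tested.

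**Figure D1:**
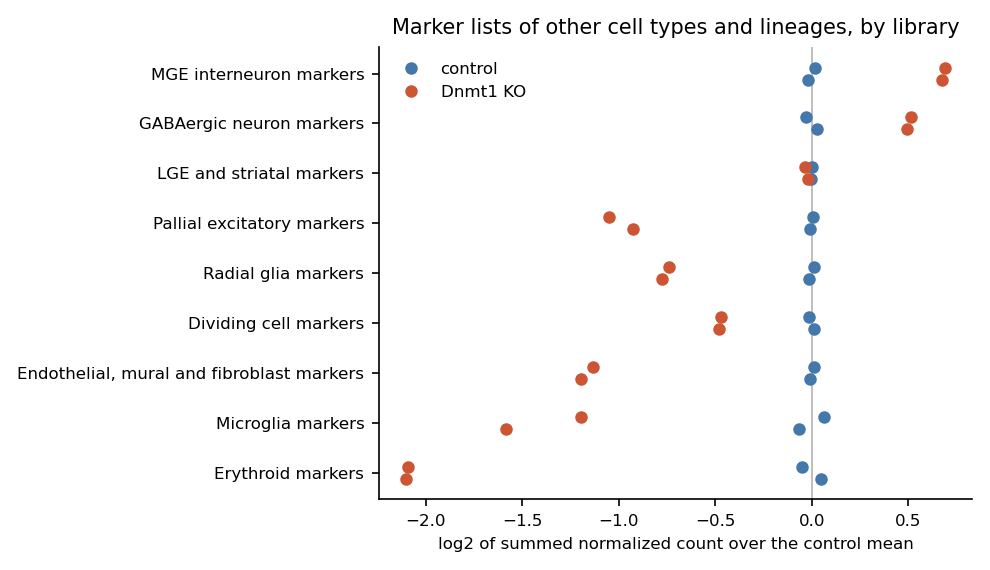
Summed normalized counts of 9 marker lists, each as log2 over its control mean, with 1 point per library (blue, control; red, *Dnmt1* KO). MGE and GABAergic lists lie above control in both KO libraries, the LGE and striatal list lies near control, and the other 6 lists lie below it. The LGE and striatal sum includes *Bcl11b*, which was higher in KO, while most of its other tested markers were lower.

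*Nr2f1* and *Nr2f2* encode orphan nuclear receptors with nearly identical DNA-binding domains. Their coding sequences share an identical run of 59 bases, shorter than a read of 75 bases, in exon 1 of 3 of either gene (GRCm39 with GENCODE, chr13:78346373-78346491 and chr7:70009770-70009888, both minus strand). The run is printed with 30 bases on each side, since it is where reads of the pair are hardest to assign. Capitals mark the 26 bases that differ.

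Nr2f1: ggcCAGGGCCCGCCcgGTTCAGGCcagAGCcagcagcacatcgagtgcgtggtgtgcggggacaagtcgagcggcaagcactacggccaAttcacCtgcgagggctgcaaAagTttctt
Nr2f2: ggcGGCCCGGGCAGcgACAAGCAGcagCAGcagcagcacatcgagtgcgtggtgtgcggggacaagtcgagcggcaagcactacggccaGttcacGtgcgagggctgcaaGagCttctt

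No window of 75 bases was shared between the transcripts of the pair, and of 31-base windows 39 of 3879 in *Nr2f1* (1.005%) also occurred in *Nr2f2*. A small part of the reads could therefore be split between the pair, and the counts of both carry that uncertainty.

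*Nr2f1* (ENSMUSG00000069171, chr13:78337092-78348578, minus strand) had 1648 and 1534 normalized counts in control and 1674 and 1508 in KO. The genotypes overlap, since the highest and the lowest value are both KO. Its log2 fold change was 0.00 with a standard error of 0.07 and a 95% interval from −0.14 to 0.14 (limma adjusted p = 0.992). This holds on the scale of the library, whereas per 1000 normalized counts of *Gad1*, *Gad2* and *Slc32a1* together, a scale chosen after the values were seen, *Nr2f1* stood at 449 and 422 in control and at 303 and 274 in KO, with no overlap. *Nr2f2* (ENSMUSG00000030551, chr7:70001692-70016519, minus strand) had 1487 and 1571 in control and 1231 and 1208 in KO. Both KO libraries lie below both control libraries. The log2 fold change was −0.33 ± 0.06 (SE), with a 95% interval from −0.46 to −0.19 and adjusted p = 0.0021 by limma. DESeq2 on the recovered reads gave adjusted p = 0.00352, and with a library left out limma called it each time (adjusted p from 0.0019 to 0.0232). *Nr2f2* is also a gene of venous endothelium and of some mesenchymal cells, and endothelial, mural and fibroblast markers were lower in KO as given above, and their part in its value was not tested.

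Within a library, the log2 ratio of *Nr2f1* over *Nr2f2* was 0.15 and −0.03 in control and 0.44 and 0.32 in KO. The means were 0.06 ± 0.13 and 0.38 ± 0.09 (SD, n = 2), a difference of 0.32 with no overlap between genotypes, for which the exact permutation test could not give less than p = 0.333. The pair thus stood at near equal counts in control and was tilted toward *Nr2f1* in KO.

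Antisense genes overlap the pair, and the setting used for strand in counting is not given in the sources used here. *A830082K12Rik*, an lncRNA on the other strand that overlaps *Nr2f1*, had 93.1 and 99.0 normalized counts in control and 118 and 106 in KO (log2 fold change 0.22, limma adjusted p = 0.436). *3110006O06Rik*, also antisense to *Nr2f1*, stayed at 12.8 normalized counts or less. *B130024G19Rik*, antisense to *Nr2f2*, had 72.5 and 40.8 in control and 54.3 and 37.1 in KO, which overlap (log2 fold change −0.27, limma adjusted p = 0.597). Each took far fewer reads than the receptor gene it overlaps.

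**Figure D2:**
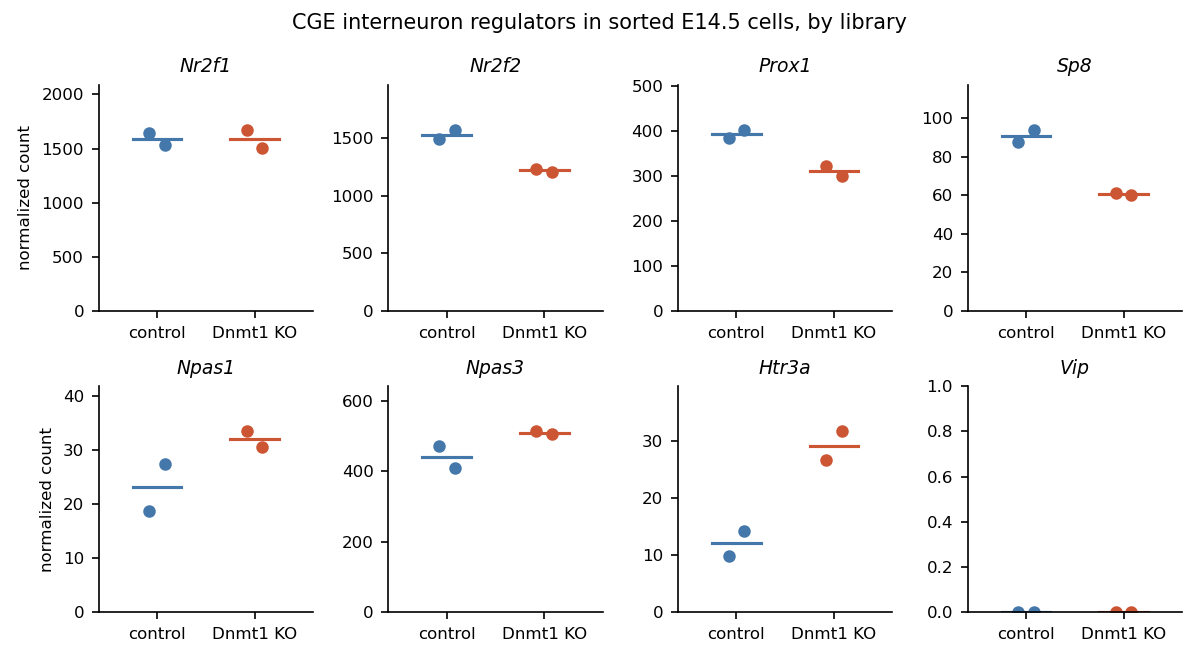
Normalized counts of the 8 genes in each library (points; blue, control; red, *Dnmt1* KO) with the mean of each genotype (bars), on linear axes from 0. KO points lie below control for *Nr2f2*, *Prox1* and *Sp8*, above control for *Npas1*, *Npas3* and *Htr3a*, among the control points for *Nr2f1*, and at 0 for *Vip*.

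*Prox1* (ENSMUSG00000010175, chr1:189850232-189904637, minus strand), which is needed for the maturation of CGE-derived interneurons, had 384 and 403 normalized counts in control and 324 and 300 in KO. The genotypes do not overlap. On the log2 scale the change was −0.33 ± 0.10 (SE), with a 95% interval from −0.55 to −0.12 and adjusted p = 0.0324 by limma. It was not called by DESeq2 (adjusted p = 0.196), nor by limma without control replicate 1 (0.0718), control replicate 2 (0.154) or KO replicate 2 (0.158). Its antisense neighbour *Prox1os* reached at most 6.13 normalized counts.

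*Sp8* and its relative *Sp9* encode zinc finger transcription factors of the ventral telencephalon. *Sp8* marks the CGE and the dorsal part of the lateral eminence, and *Sp9* is known in lateral and medial eminence lineages. Their zinc finger exons (exon 2 of 2 in each) share an identical run of 44 bases, printed with 30 bases on either side from chr12:118813206-118813309 for *Sp8* and chr2:73104435-73104538 for *Sp9* (GRCm39, plus strand). The stretch shows how alike the pair is, with the 6 differing bases in capitals.

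Sp8: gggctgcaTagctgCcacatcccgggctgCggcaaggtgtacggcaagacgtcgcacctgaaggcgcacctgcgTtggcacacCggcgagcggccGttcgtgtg
Sp9: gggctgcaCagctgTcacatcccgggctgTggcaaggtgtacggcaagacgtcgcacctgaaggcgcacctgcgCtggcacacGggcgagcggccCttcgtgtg

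Here too no 75-base window was shared, and 14 of 4603 windows of 31 bases in *Sp8* (0.304%) also occurred in *Sp9*. *Sp8* (ENSMUSG00000048562, chr12:118810064-118816311, plus strand) had 87.7 and 93.9 normalized counts in control and 61.2 and 60.1 in KO. Both KO libraries lie below both controls, on 98 and 92 reads in control and 62 and 55 in KO. Its log2 fold change was −0.57 ± 0.20 (SE), with a 95% interval from −1.004 to −0.15. This did not pass the threshold (limma adjusted p = 0.0635), and none of 13 other settings called it (adjusted p from 0.0516 to 0.334). *Sp9* moved the opposite way, from 911 and 915 in control to 1419 and 1435 in KO. Its log2 fold change was 0.64 ± 0.06 (SE), with adjusted p = 6.31e-06 by limma, and it was called with each library left out.

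The *Sp8* and *Sp9* ratio, taken up after the values were seen and given with no test, was −3.36 and −3.27 on the log2 scale in control. It was −4.51 and −4.55 in KO, a difference of −1.22. Relative to *Sp9*, *Sp8* therefore stood lower in KO than its own fold change shows, because the pair moved in opposite directions.

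**Figure D3:**
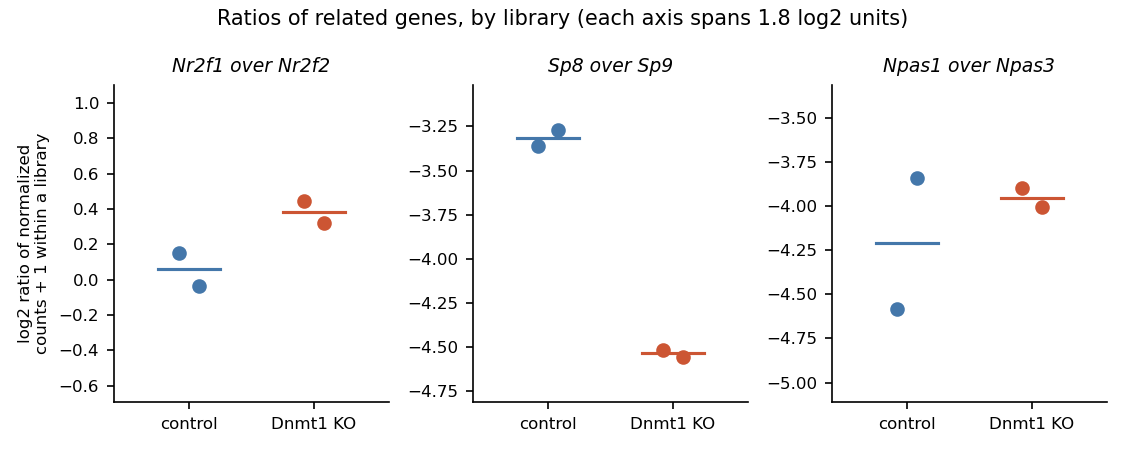
Log2 ratio of normalized counts (each + 1) within a library for 3 pairs of related genes (points, libraries; bars, genotype means; blue, control; red, *Dnmt1* KO), on axes of equal span. *Nr2f1* over *Nr2f2* is higher in KO by 0.32, *Sp8* over *Sp9* is lower by 1.22 log2 units, and *Npas1* over *Npas3* overlaps between genotypes.

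Since DNMT1 acts on CG dinucleotides, the promoters of the members were read for them. RefSeq windows of 300 bases (250 before a gene's start and 50 after it, GRCm38.p6) were matched for 7 of 8 members, with 11 windows in all and none for *Htr3a*. Among the 3 genes with both KO libraries below both controls, the richest window was 1 of 3 for *Sp8*, and the only window of *Nr2f2* was as poor as the poorest of *Sp8*. The 100 bases before the start are printed for these, at chr12:118847133-118847232 (plus strand) and chr7:70366747-70366846 (minus strand) of GRCm38.p6, with each CG, the motif searched, in capitals. CG reads the same on either strand.

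Sp8 promoter: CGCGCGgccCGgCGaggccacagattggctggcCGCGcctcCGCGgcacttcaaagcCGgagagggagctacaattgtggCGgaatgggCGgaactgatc
Nr2f2 promoter: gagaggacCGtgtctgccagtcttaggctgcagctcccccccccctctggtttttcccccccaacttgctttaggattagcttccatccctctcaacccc

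The printed *Sp8* window held 32 CG dinucleotides in its 300 bases, a number met or passed by 9.53% of 32841 RefSeq windows, whereas the *Nr2f2* window held 2, met or passed by 85.9%. The median window held 7. The richest *Prox1* window held 25, that of *Nr2f1* 23, that of *Npas1* 20 and that of *Npas3* 18, while *Vip* had 4. The windows matched to genes that lay lower in KO thus fell at both ends of this range. *Nr2f2* has 7 annotated transcripts but only the printed window here, and whether that window serves the transcripts counted was not tested. DNA methylation was not analysed here, and the other annotated starts of *Sp8* have windows that hold 2 and 10.

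*Npas3* (ENSMUSG00000021010, chr12:53294940-54118958, plus strand), a long gene of 824 kb, had 473 and 408 normalized counts in control and 514 and 507 in KO. Both KO values lie above both controls. A log2 fold change of 0.21 ± 0.10 (SE), with a 95% interval from 0.01 to 0.42, was not called (limma adjusted p = 0.142). It was 0.321 without control replicate 1 and 0.108 without control replicate 2. *Npas1* (ENSMUSG00000001988, chr7:16188679-16211653, minus strand) had 18.8 and 27.6 in control and 33.5 and 30.6 in KO. Here also the KO values are the higher ones, but the control libraries differ from each other by more than the lower KO value differs from control replicate 2. Its log2 fold change was 0.47 ± 0.34 (SE), with a 95% interval from −0.25 to 1.20 (limma adjusted p = 0.389). These values rest on 21 to 34 reads per library, and with a library left out the change ran from 0.21 without control replicate 1 to 0.739 without control replicate 2. The 2 genes share no 31-base window, and their log2 ratio of −4.58 and −3.84 in control overlapped that of −3.90 and −4.01 in KO. *Tmem160*, which overlaps the end of *Npas1* on the other strand, had 39.4 and 41.9 normalized counts in control and 23.7 and 36.1 in KO (limma adjusted p = 0.352), so that the count of *Npas1* is uncertain if strand was not used.

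*Htr3a* (ENSMUSG00000032269, chr9:48810512-48822686, minus strand), the ion channel subunit that marks most CGE-derived interneurons after birth, had 9.84 and 14.3 normalized counts in control and 26.6 and 31.7 in KO. These rest on 11 and 14 reads in control and 27 and 29 in KO. The genotypes do not overlap, and both KO libraries lie well above the controls. The log2 fold change was 1.22 ± 0.40 (SE), with a 95% interval from 0.36 to 2.08, and limma's adjusted p = 0.0490 lies at the threshold. It was not called by DESeq2 (adjusted p = 0.241) or by limma with any of the 4 libraries left out (adjusted p from 0.0652 without control replicate 2 to 0.201 without KO replicate 2). With a pseudocount of 10 in place of 1 the log2 fold change was 0.83. *Htr3b*, which joins HTR3A in some receptors, had 1 read in KO replicate 2 and none in the other libraries.

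*Vip* (ENSMUSG00000019772, chr10:5589186-5599956, plus strand), the neuropeptide of a CGE class that matures after birth, had 0 reads in all 4 libraries. A count of 0 allows up to 3 reads, or 2.685 to 3.278 normalized counts in a library, counting error only. Its receptor gene *Vipr2* had 8.05 and 18.4 normalized counts in control and 5.92 and 6.56 in KO, a mean below the minimum for testing.

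Across the 8 genes, 7 had enough counts to be tested. By limma 1 of 7 was called higher, where 8.3% of all genes tested were, and 2 of 7 were called lower, where 8.99% were. DESeq2 called none of the 7 higher (5.06% of the 12656 genes to which it gave an adjusted p) and 1 lower (5.43%), with 1 higher and 2 lower at an unadjusted p below 0.05. At an unadjusted p below 0.05, limma placed 5 of the 7 in one direction or the other, as it did 30.2% of all genes. Both KO libraries lay above both controls in 3 of 7 genes, against 28.4% of all genes, and below them in 3 of 7, against 29%. The median log2 fold change of the 7 was 0.00, as was that of all genes. The 8 names did not move as a block. *Nr2f1*, *Nr2f2*, *Prox1* and *Sp8* lay level or lower. *Npas1*, *Npas3* and *Htr3a* lay higher, and of these only *Htr3a* was called.

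**Figure D4:**
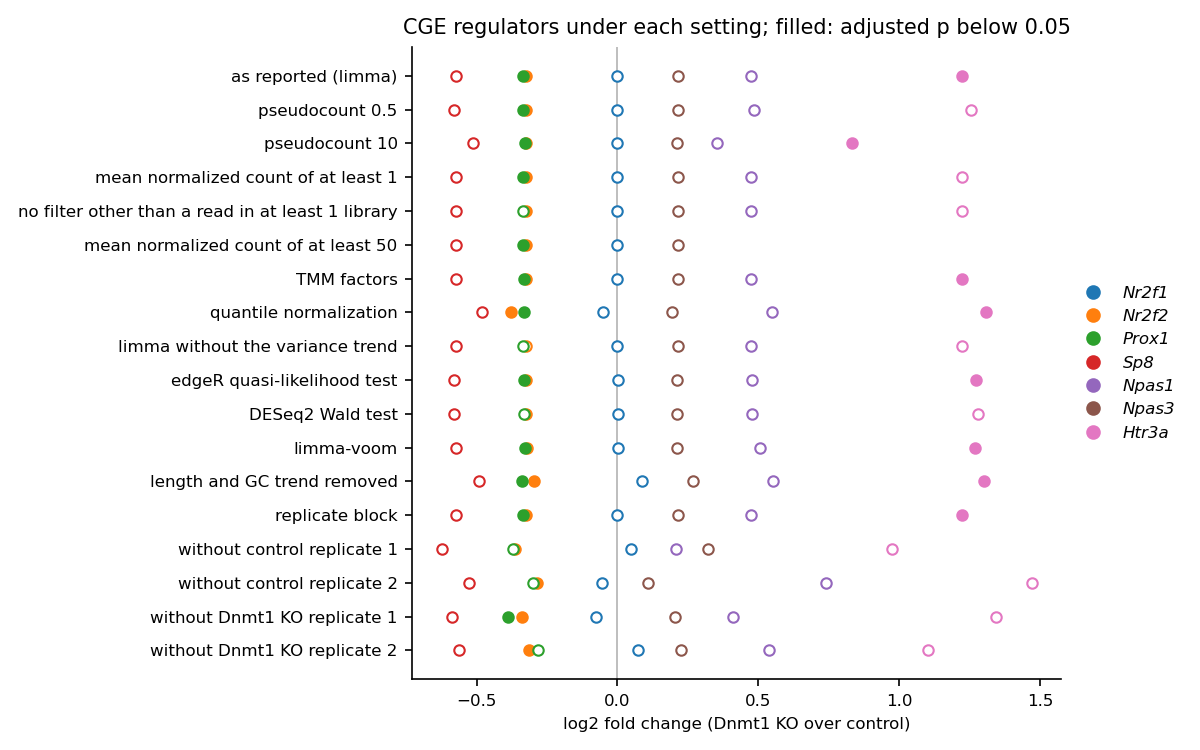
Log2 fold change (KO over control) of the 7 genes tested, under the reported test, 13 other settings and with each of 4 libraries left out (filled, adjusted p below 0.05). *Nr2f2* is called in all settings but limma without the variance trend, *Sp8*, *Npas1*, *Npas3* and *Nr2f1* in none, and no *Htr3a* point is filled where a library was left out.

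Levels were compared between genes as normalized counts per kb of transcript. In control the order was *Nr2f1* (407 ± 20.6, SD, n = 2), *Nr2f2* (362 ± 14.0), *Npas3* (68.4 ± 7.13), *Prox1* (49.3 ± 1.72), *Sp8* (19.6 ± 0.95), *Npas1* (10.8 ± 2.88), *Htr3a* (5.09 ± 1.33) and *Vip* (0). No neighbours in that order overlapped in their 2 libraries. In KO the same scale gave 407 ± 30.0, 289 ± 3.78, 79.2 ± 0.76, 39.1 ± 2.04, 13.1 ± 0.16, 14.9 ± 0.97, 12.3 ± 1.51 and 0, so that *Npas1* passed *Sp8*, and *Sp8* and *Htr3a* could not be told apart within their spread. The place of *Npas1* depends on the transcript chosen, since with its longest transcript the control level was 5.49 per kb.

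On this per-kb scale, *Nr2f1* and *Nr2f2* lay at the 93.5th and 92.5th percentile of 14285 genes in control, near *Dlx1* (403 per kb) and below *Lhx6* (749) and *Sst* (1598). *Prox1* lay at the 52.4th percentile, *Sp8* at the 29.6th and *Htr3a* at the 7.18th, which became 46.8, 22.4 and 21.2 in KO. The listed genes thus span nearly the whole range of expression, with the COUP-TF genes at the level of general interneuron factors and *Htr3a* near the low end.

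Further genes known from CGE-derived interneurons were read as a list of 20, of which 11 had enough counts for a test. None was called higher, against 8.3% of all genes, and 4 were called lower, against 8.99%. At an unadjusted p below 0.05, limma, edgeR and DESeq2 each placed 0 of the 11 higher, and limma placed 6 lower. The median log2 fold change over the 11 was −0.46 (range −1.78 to 0.24), against 0.00 over all genes. *Calb2*, which encodes the calcium-binding protein calretinin, had 78.7 and 84.7 normalized counts in control and 38.5 and 45.9 in KO (log2 fold change −0.94 ± 0.23 SE, limma adjusted p = 0.0102). The KO level of *Calb2* lay below control in both libraries, and the call was lost without either control library.

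*Cxcl14*, a chemokine gene, had 52.8 and 47.0 in control and 22.7 and 28.4 in KO (log2 fold change −0.94, limma adjusted p = 0.0375). *Cck*, the neuropeptide cholecystokinin, had 19.7 and 23.5 in control and 2.96 and 9.83 in KO (log2 fold change −1.78, limma adjusted p = 0.0408). The KO value of *Cck* rests on 3 and 9 reads, and its libraries differ widely. *Id2*, an inhibitor of basic helix-loop-helix factors, had 162 and 177 in control and 114 and 131 in KO (log2 fold change −0.46, limma adjusted p = 0.0478). With the length and GC trend of the libraries removed, *Id2* fell to −0.223 (limma adjusted p = 0.347). *Cck* was −1.05 without KO replicate 1 and −0.976 with a pseudocount of 10. In all 4 genes both KO libraries lay below both controls, as they did in 29% of all genes. The 4 were picked because they were called lower, so this share is no test of them.

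DESeq2 called none of the 8 genes to which it gave an adjusted p, and 3 of the 11 had a lower level at an unadjusted p below 0.05. It gave no adjusted p to the other 3, *Cck*, *Egln3* and *Nr3c2*. With a library left out, limma called 0 without either control library, 1 (*Calb2*) without KO replicate 1 and all 4 without KO replicate 2. *Calb2* and *Cck* are also made by excitatory and Cajal-Retzius neurons, and the pallial excitatory markers were lower in KO as given above. Their part in these values was not tested. *Adarb2*, a widely used CGE gene, gave 0.24 (limma adjusted p = 0.195) and *Kit* 0.20 (0.204) on the log2 scale, both above 0.

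Relatives and partners of the members made a list of 29 genes in the table, of which 21 were tested. By limma 4 were called higher, against 8.3% of all genes, and 1 was called lower, against 8.99%. Their median log2 fold change was −0.01. Among the relatives, *Nr2c2*, a nuclear receptor of the same subfamily as the COUP-TFs, had 1045 and 1038 normalized counts in control and 1177 and 1387 in KO (log2 fold change 0.29, limma adjusted p = 0.0155), with 0.176 without KO replicate 2. *Sp9* is described above. Of the partners, ARNT and ARNT2 are the PAS proteins with which NPAS factors pair. *Arnt2* went from 2904 and 2873 to 3468 and 3753 (log2 fold change 0.32 ± 0.05 SE, limma adjusted p = 0.000569) and held with each library left out. *Arnt* had 277 and 244 in control and 245 and 260 in KO and overlapped between genotypes (limma adjusted p = 0.846). *Arnt2* was called and *Arnt* was not, and the difference between them was not tested.

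Neuropilins are receptors for semaphorins in migrating interneurons and are known targets of COUP-TFs. *Nrp2* had 2475 and 2341 normalized counts in control and 2732 and 2756 in KO (log2 fold change 0.19, limma adjusted p = 0.0222). *Nrp1* had 331 and 327 in control and 259 and 241 in KO (log2 fold change −0.39, limma adjusted p = 0.0207). The genotypes do not overlap in either gene, and the pair lay in opposite directions. Of all genes, 28.4% had both KO libraries above both controls, as *Nrp2* did, and 29% had them below, as *Nrp1* did. Both neuropilin genes were named because they were called, so these shares are no test of them. With a library left out, *Nrp1* and *Nr2c2* kept their calls only without KO replicate 1 and *Nrp2* only without control replicate 1, and DESeq2 called neither neuropilin (adjusted p = 0.0522 and 0.146). *Nrp1* is also an endothelial gene, and the vascular markers were lower in KO, with their part not tested.

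**Figure D5:**
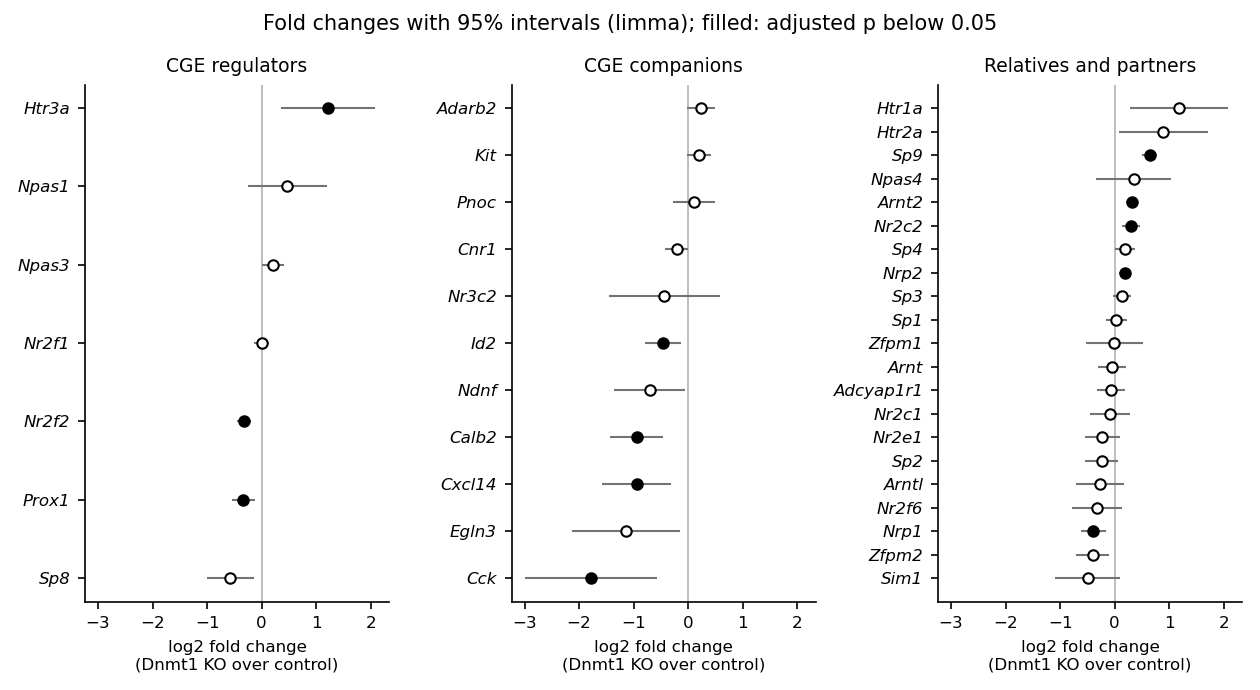
Log2 fold change (KO over control) with its 95% interval for each gene tested among the listed regulators (7), the CGE companions (11) and the relatives and partners (21), on a shared axis (filled, limma adjusted p below 0.05). The 4 filled companions all lie below 0, from −0.46 for *Id2* to −1.78 for *Cck*, while the filled regulators and relatives lie on both sides.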

How the data were processed

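RNA of tdTomato-positive cells was sequenced in 4 libraries, grouped by the genotype in the labels. Reads had been trimmed (Trim Galore), aligned to GRCm39 (STAR) and quantified (Salmon), and the signal that the authors deposited for a gene is its read count divided by a DESeq2 1.32.0 size factor. Of 89965 values above 0, 100% gave whole reads to within 0.0001 of a read, at 6970247 to 8376711 reads per library with 16.8% to 17.8% in the top 10 genes. Each SD rests on 2 libraries, and limits set on counts cover counting error only.

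Genes averaging 10 or more normalized counts were tested on log2(value + 1) with limma 3.58.1 (R 4.3.3, variance trend, genotype as the only term, Benjamini-Hochberg adjustment). The other settings were pseudocounts of 0.5 and 10, minimum means of 1 and 50 or no minimum, TMM, quantile normalization, no variance trend, edgeR 4.0.16, DESeq2 1.42.0 and limma-voom (the last 3 on recovered reads), a length and GC trend taken out (spline, 5 degrees of freedom), the replicate block and each library left out. When a library was left out, the lone library of its genotype was assumed to vary like the others. Steps were tested on simulated data.

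The members and lists were chosen with earlier results of these data known. Named were all members, called genes of the companion and relative lists (at most 8 each), *Arnt*, *Arnt2*, *Sp9*, *Htr3b*, *Vipr2*, genes overlapping a member or starting within 5 kb, label checks and the highest marker of each list, of which 1 is not reported here. *Adarb2*, *Kit*, *Dlx1*, *Gata1*, *Egln3*, *Nr3c2*, *Gad1*, *Gad2*, *Slc32a1*, *Htr1a*, *Htr1b*, *Htr2a*, *Htr2c* and *Zfpm2* were named after their values were seen. Neighbours annotated by GENCODE M39 under names the table lacks were not analysed here. Levels per kb use the transcript with the longest coding sequence.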

Additional observations from a re-analysis of the deposited data

How the results depend on the processing

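Among all genes, limma called 2476 (1189 higher, 1287 lower), edgeR 2528, DESeq2 1327 and limma without the variance trend 0, where 3339 had an unadjusted p below 0.05. Leaving out single libraries gave 1525 to 2205 genes, and removing the length and GC trend moved the split to 1485 higher and 1102 lower.

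Members called higher numbered 0 with a pseudocount of 0.5, with a minimum mean of 1 or 50, with no minimum, without the variance trend, by DESeq2, and with a library left out (0 to 0). Members called lower numbered 1 with no minimum, 0 without the variance trend, 1 by DESeq2 and 1 to 2 with a library left out. Companions called lower numbered 1 with no minimum, 2 at a minimum of 50, 1 under quantile normalization, 0 without the variance trend and by DESeq2, 2 with the length and GC trend removed, and 0 to 4 with a library left out. Relatives called higher numbered 2 under quantile normalization, 0 without the variance trend, 5 with the length and GC trend removed (*Htr1a* added) and 2 to 3 with a library left out, and those called lower numbered 0 without the variance trend, 0 by DESeq2 and 0 to 1 with a library left out.

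The log2 fold change of *Nr2f1* changed sign at values near 0, with 0.00013 under TMM, 0.00137 by edgeR, 0.0021 by DESeq2, 0.00051 by limma-voom, 0.0886 with the length and GC trend removed and −0.0769 to 0.0738 with a library left out. *Nr2f2* was −0.326 without the variance trend (adjusted p = 0.156). *Prox1* was −0.335 with no minimum (0.06), −0.335 without the trend (0.164), −0.331 by DESeq2 (0.196) and −0.388 to −0.282 with a library left out. *Htr3a* was 1.26 with a pseudocount of 0.5 (0.0506), 1.22 with a minimum of 1 (0.057), 1.22 with no minimum (0.103), 1.22 without the trend (0.0865), 1.28 by DESeq2 (0.241) and 0.975 to 1.47 with a library left out. *Arnt* changed sign to 0.0242 with the length and GC trend removed and ranged from −0.137 to 0.0476 with a library left out. The longest transcript gave control levels of 47.3 per kb for *Prox1* and 5.49 for *Npas1*, and a pseudocount of 10 gave −1.15 for the change in *Sp8* over *Sp9*. *Npas1* and *Htr3a* have no value at a minimum of 50. The cause of these changes was not tested, except that fewer genes or fewer libraries enter where a minimum is raised or a library left out.

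Same-numbered libraries did not deviate together (r = −0.08 across 14323 genes, 2 pairs), so the numbers are only shared. With the replicate block 2957 genes were called in all and 2 relatives (*Nrp1* and *Zfpm2*) were called lower in place of 1, and no member changed its call. Of the comparisons that answer the design, 183 values kept direction and side of the threshold, 41 moved, 16 lost the threshold and 7 changed sign. With 2 pooled libraries per genotype and 11 to 34 reads for *Htr3a* and *Npas1*, depth and replicate number limit what can be seen for these genes.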

Other observations

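Serotonin receptor genes other than *Htr3a* were read beside it. *Htr1a* had 9.84 and 12.3 normalized counts in control and 21.7 and 31.7 in KO (log2 fold change 1.18, limma adjusted p = 0.0672), and *Htr2a* had 12.5 and 18.4 in control and 27.6 and 30.6 in KO (0.89, limma adjusted p = 0.127). Neither was called in these fits. In *Htr1a* and *Htr2a* the KO libraries lay above the control libraries, as they did in 28.4% of all genes. *Htr1b* had 7.16 and 7.15 in control and 8.88 and 4.37 in KO. *Htr2c* had 8.05 and 1.02 in control and 5.92 and 4.37 in KO. *Htr1b* and *Htr2c* overlapped between genotypes and lay below the minimum for testing, so that the rise was not shared by all serotonin receptor genes read. With the length and GC trend removed *Htr1a* was called (1.27, limma adjusted p = 0.0487).

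Because GABAergic neuron markers were higher in KO, the members were also expressed per 1000 normalized counts of *Gad1*, *Gad2* and *Slc32a1* together, a scale chosen after the values were seen and given with no test. On it *Nr2f2* stood at 405 and 432 in control and 222 and 219 in KO, and *Prox1* at 105 and 111 and at 58.5 and 54.6. *Sp8* stood at 23.9 and 25.8 in control and 11.1 and 10.9 in KO. All members are shifted down on this scale, since *Gad1*, *Gad2* and *Slc32a1* were themselves higher in KO. With that shift included, the log2 differences were −0.60 for *Nr2f1*, −0.92 for *Nr2f2*, −0.93 for *Prox1* and −1.18 for *Sp8*. *Npas1* differed by −0.13 with overlapping libraries, *Npas3* by −0.38 and *Htr3a* by 0.68. The direction for *Npas1* and *Npas3* therefore depended on the scale, lower per GABAergic count and higher per library, while *Htr3a* was higher on both.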
